A study of Homo sapiens with 6 samples.

Results

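The genes of telomerase and of the telomere-binding complex shelterin were followed in H929 (NCI-H929), an established cell line of human multiple myeloma, a cancer of plasma cells. They are 9 of the 62703 gene IDs in the deposited tables and were chosen by symbol: the telomerase genes TERT, TERC and WRAP53, and the shelterin genes TERF1, TERF2, TERF2IP, POT1, TINF2 and ACD. The list was drawn up because TERT was lower after treatment, so the values of TERT between the groups are given as a description, with no test. The treated group is 3 RNA-seq libraries of cells given 1 µM of Mi-2, which inhibits MALT1, a protease of NF-κB signalling, and the control group is 3 libraries of cells given its solvent DMSO, all for 24 h. All 6 libraries come from this wild-type line, and no sample was untreated. All 6 titles carry the tag bio rep 1, and separate cultures are not mentioned, so the spread between libraries that the p-values rest on may be technical.

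Telomerase is a ribonucleoprotein that adds telomeric repeats to chromosome ends. TERT is its reverse transcriptase subunit, TERC the RNA that carries the template, and the WRAP53 protein (TCAB1) brings the enzyme to Cajal bodies and telomeres. Most body cells silence TERT, whereas most cancers, myeloma among them, keep it active at a low level. Shelterin coats the telomeric repeats: TERF1 and TERF2 bind the duplex repeat, TERF2IP (RAP1) binds TERF2, TINF2 (TIN2) bridges TERF1, TERF2 and ACD, and ACD (TPP1) with POT1 covers the single-stranded end and recruits telomerase.

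The template of TERC is shown because TERT copies it, and the TERT promoter because TERT was the member that differed most between the groups. The first 100 bases of the annotated TERC transcript lie on the minus strand at chr3:169764961-169765060 (GRCh38, GENCODE 29), and the capitals mark the 11 bases at transcript positions 46 to 56 that pair with the telomeric repeat, the template. The TERT sequence is the 250 bases before the RefSeq start, on the minus strand at chr5:1295069-1295318 (GRCh38.p14). Its capitals mark 1 E-box (CACGTG, the letters that MYC and MAX bind, the same on both strands) and 2 GC boxes (GGGCGG, the letters of SP1, which read CCGCCC on this strand).
TERC: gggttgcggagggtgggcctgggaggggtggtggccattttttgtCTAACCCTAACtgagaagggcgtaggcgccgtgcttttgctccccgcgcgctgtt
TERT promoter: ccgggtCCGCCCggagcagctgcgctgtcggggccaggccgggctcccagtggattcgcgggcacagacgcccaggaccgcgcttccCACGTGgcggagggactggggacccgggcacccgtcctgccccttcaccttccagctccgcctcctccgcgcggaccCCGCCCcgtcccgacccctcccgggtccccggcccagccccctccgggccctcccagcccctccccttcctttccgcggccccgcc
The E-box ends 157 bases before the start, and the GC boxes end 238 and 80 bases before it. Over 35116 RefSeq promoter windows of the same length, 6.34% hold CACGTG and 42.6% hold GGGCGG on either strand. RefSeq windows were at hand for 6 of the 9 genes. Of these, only TERT holds an E-box, and TERT, POT1, TINF2, ACD, TERF2IP and WRAP53 each have a GC box in at least 1 of their windows. The E2F core (TTTCGCGC or TTTGGCGC, both strands), which 0.968% of windows hold, is in no window of these genes. A match is a description of letters and not a bound site.

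Total estimated counts per library ran from 21938900 to 23756700 with Mi-2 and from 19980700 to 22651600 with DMSO. Of 16082 genes tested with edgeR, 11.0% passed an adjusted p under 0.05, with 5.02% higher and 6.03% lower with Mi-2. The CPM ranges of the groups (counts per 1000000, scaled by TMM) did not overlap for 32.3% of the tested genes. The 9 plasma cell markers were present in every library. Of these, edgeR called SDC1 (log2 fold change -0.69) and CD38 (-0.86) lower with Mi-2, and MZB1 (0.70) and IRF4 (0.35) higher. All 8 myeloid markers stayed under 1 CPM, with a summed level of 0.566 to 1.15 CPM with Mi-2 and 0.333 to 1.19 CPM with DMSO. The 8 T and NK cell markers summed to 39.8 to 46.0 CPM with Mi-2 and 27.5 to 33.7 CPM with DMSO. Nearly all of that was CD3E (called higher with Mi-2, 0.50), while CD3D and CD8A were at 0. The 9 markers of fibroblasts, endothelium and epithelium summed to 90.9 to 107 CPM with Mi-2 and 64.9 to 79.4 CPM with DMSO, with COL1A2, COL3A1 and CDH5 at 0. PECAM1 (0.35) and KRT18 (1.07) carried that sum, and edgeR called both higher with Mi-2. The 6 erythroid and platelet markers summed to 0.681 to 5.79 CPM with Mi-2 and 0.447 to 4.80 CPM with DMSO, with PPBP and PF4 at 0. The part of these marker levels in the values of the telomere genes was not tested.

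TERT (ENSG00000164362, chromosome 5, 1253147 to 1295069, minus strand) had 2.98, 2.37 and 4.61 CPM in Mi-2 libraries 1, 2 and 3, against 8.65, 9.37 and 8.90 CPM in DMSO libraries 1, 2 and 3. The highest Mi-2 library lay below the lowest DMSO library. The means were 3.32 ± 1.16 CPM with Mi-2 and 8.97 ± 0.366 CPM with DMSO (SD, n = 3 each), which is 2.69-fold lower with Mi-2 (log2 fold change -1.43 ± 0.23, SE). Of the 16082 tested genes, 68 had a lower log2 fold change. The values rest on few reads, with 65.6, 55.0 and 110.0 estimated counts in the Mi-2 libraries and 174, 212 and 193 in the DMSO libraries. In bulk RNA, fewer cells that express a gene and less RNA per cell cannot be told apart.

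In CPM, TERT varied more among the Mi-2 libraries than among the DMSO libraries. The coefficient of variation of TERT was 34.9% with Mi-2 and 4.08% with DMSO, while in the other 7 members with reads it ran from 1.11 to 14.3% with Mi-2 and from 2.01 to 10.5% with DMSO. Mi-2 library 3 held the most TERT of its group. Without it the log2 fold change was -1.74, and with any other library left out it ran from -1.45 to -1.24.

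**Figure D1:**
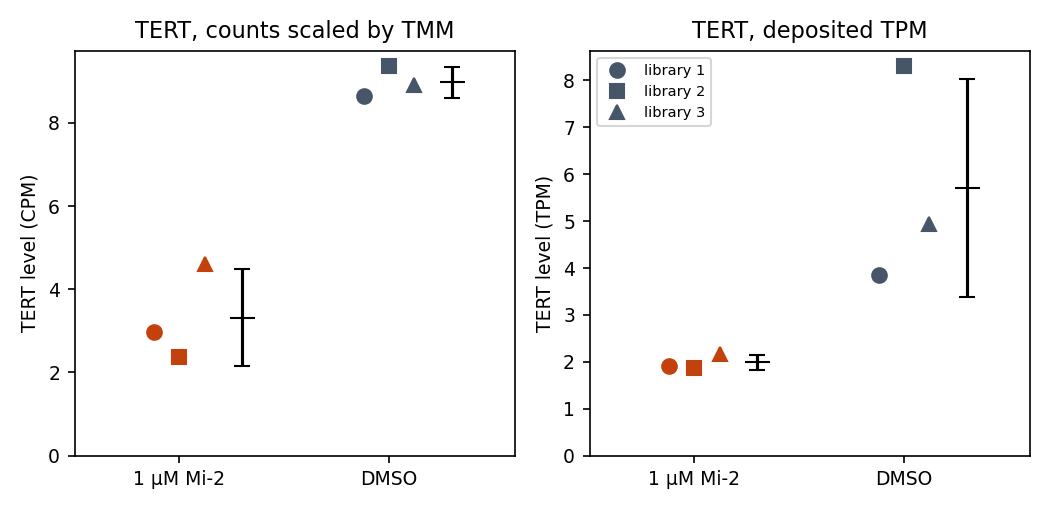
TERT in each library, as CPM scaled by TMM (left panel) and as deposited TPM (right panel), with the 3 Mi-2 libraries left of the 3 DMSO libraries, a symbol for each library number, and bars for mean ± SD. All Mi-2 libraries lie below all DMSO libraries on both scales (2.37 to 4.61 against 8.65 to 9.37 CPM), and the spread moves to the DMSO group on the TPM scale.

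On the deposited TPM scale, which divides by transcript length, TERT had 1.92, 1.87 and 2.17 TPM in Mi-2 libraries 1, 2 and 3, against 3.86, 8.31 and 4.94 TPM in DMSO libraries 1, 2 and 3. The groups again did not overlap, but DMSO library 2 now stood apart, and the coefficient of variation was 8.09% with Mi-2 and 40.7% with DMSO. The number of estimated counts that make 1 TPM of TERT differed 1.94-fold between the highest library (DMSO 1) and the lowest (DMSO 2), after scaling to the typical gene. The median gene differed 1.13-fold, and 97.5% of 11619 genes with at least 50 counts in every library differed less than TERT. Counts per TPM follow the transcript length that the estimate assigns to a gene in each library, and GENCODE 29 lists 6 transcripts of TERT. Counts per transcript were not analysed here. TERF2 had the next largest difference among the members (1.38-fold), and TERF2IP the smallest (1.01-fold).

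TERC (ENSG00000270141, chromosome 3, 169764520 to 169765060, minus strand) was listed at 0 in all 6 libraries. A count of 0 allows up to 3 counts per library, which is 0.126 to 0.137 CPM with Mi-2 and 0.132 to 0.150 CPM with DMSO (counting error only). A second ID of the tables, ENSG00000277925, annotated inside TERC on the same strand as a vertebrate telomerase RNA, held 1, 3 and 0 counts in Mi-2 libraries 1, 2 and 3, against 2, 0 and 3 counts in DMSO libraries 1, 2 and 3. No difference in the telomerase RNA was detectable at this depth. TERC does not end in a long poly(A) tail, and how RNA was selected for the libraries is not given in the sources used here. Among other RNAs of that kind, chosen after their values were seen, RMRP had at most 7 counts and RPPH1 at most 5 in any library. RN7SK had 64 to 123, RN7SL1 195 to 315 and RN7SL2 291 to 559.

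WRAP53 (ENSG00000141499, chromosome 17, 7686071 to 7703502, plus strand) had 15.2, 16.9 and 16.9 CPM in Mi-2 libraries 1, 2 and 3, against 20.2, 20.9 and 24.4 CPM in DMSO libraries 1, 2 and 3. The groups did not overlap. The log2 fold change was -0.42 ± 0.12 (95% interval -0.68 to -0.15), and the adjusted p of edgeR's quasi-likelihood test was 0.0507, just short of the threshold. DESeq2 called WRAP53 lower (adjusted p = 0.0286), where it called 17.1% of all genes it tested. So did edgeR with no filter on low counts (8.78% of genes called) or with a filter of 1 CPM in 3 libraries (13.0%). Over all the alternatives the adjusted p ran from 0.0146 to 0.197.

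Per length, the shelterin gene TERF2IP was the most abundant member and TERT the least abundant of those detected. Over the 6 libraries the mean levels were 75.8 TPM for TERF2IP, 33.5 for TINF2, 32.1 for ACD, 25.6 for TERF1, 22.9 for TERF2, 12.2 for WRAP53, 7.45 for POT1 and 3.85 for TERT. This order holds for the means over both groups, and is the same with CPM per kb of annotated exons. TERF2IP lay above TINF2 in every library (62.96 to 88.1 against 28.6 to 37.7 TPM). The order of TINF2 and ACD differed between the groups: TINF2 averaged 36.3 and ACD 28.9 TPM with Mi-2, against 30.7 and 35.3 TPM with DMSO. Among the Mi-2 libraries the ranges of neighbours in the order overlapped for ACD and TERF1 and for TERF1 and TERF2. Among the DMSO libraries they overlapped for ACD and TINF2, for TERF1 and TERF2, and for POT1 and TERT. POT1 (6.55 to 8.06 TPM) and TERT (1.87 to 2.17 TPM) did not overlap among the Mi-2 libraries.

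**Figure D2:**
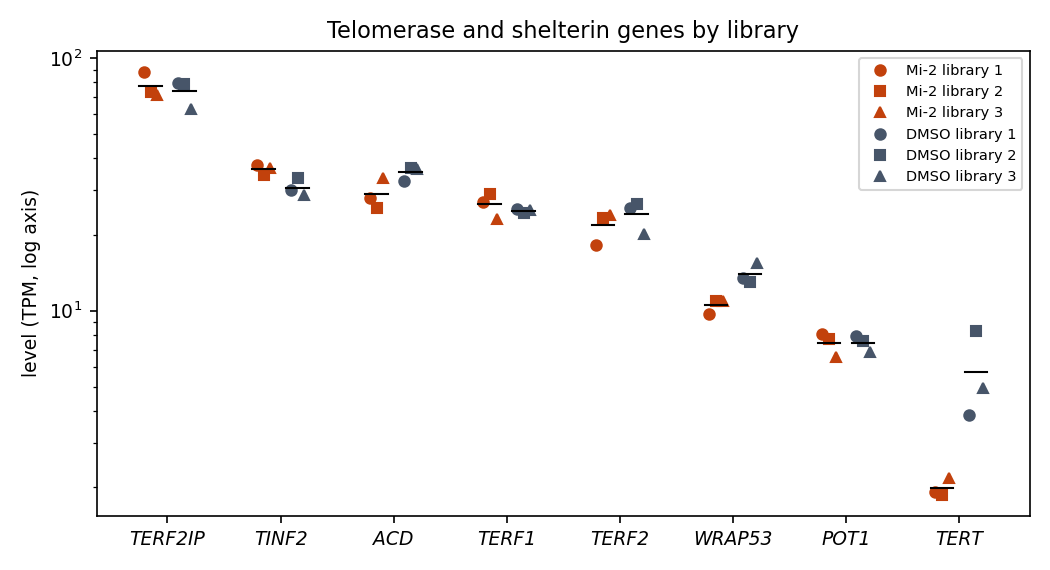
Deposited TPM of the 8 detected members in each library (log axis), in the order of their mean level, with Mi-2 libraries left of DMSO libraries and a line at each group mean. TERF2IP is highest in every library, and TERT has the largest gap between the groups.

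None of the 6 shelterin genes passed the threshold, and neither did WRAP53, so edgeR called 0 of the 7 tested members other than TERT, where it called 11.0% of all tested genes. At an unadjusted p under 0.05 there were 3 (WRAP53, TINF2 and ACD), against 27.0% of all tested genes. DESeq2 called 1, limma-voom 0 (11.0% of all genes) and limma 0 on log2(TPM + 1) and on log2(TPM + 0.1) (4.36% and 4.63% of all genes). With a block for the library number, edgeR called 2 (WRAP53 and ACD), beside 1791 genes higher and 2035 lower of all 16082. The CPM ranges did not overlap for 3 of the 7 (WRAP53, TERF2 and TINF2), against 32.3% of all tested genes. The median log2 fold change of the 7 was 0.03, beside 0.0050 over all tested genes. TERC could not be tested.

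Of the duplex-binding subunits, TERF1 (ENSG00000147601, chromosome 8, 73008864 to 73048122, plus strand) had 68.2, 73.0 and 61.0 CPM in Mi-2 libraries 1, 2 and 3, against 62.9, 59.8 and 68.2 CPM in DMSO libraries 1, 2 and 3, and the groups overlapped. Its log2 fold change was 0.08 ± 0.09, with a 95% interval of -8.47 to 22.5% change (edgeR adjusted p = 0.623). TERF2 (ENSG00000132604, chromosome 16, 69355561 to 69408571, minus strand), which also guards the chromosome end against joining, had 37.4, 35.9 and 40.5 CPM in Mi-2 libraries 1, 2 and 3, against 41.1, 42.7 and 41.8 CPM in DMSO libraries 1, 2 and 3. The Mi-2 libraries all lay below the DMSO libraries, by a small margin. The log2 fold change of TERF2 was -0.14 ± 0.09, with an interval of -20.6 to 3.54% change (edgeR adjusted p = 0.323).

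TERF2IP (ENSG00000166848, chromosome 16, 75647786 to 75761872, plus strand), the partner of TERF2, had 139, 121 and 118 CPM in Mi-2 libraries 1, 2 and 3, against 127, 123 and 108 CPM in DMSO libraries 1, 2 and 3. The groups overlapped, and the log2 fold change was 0.08 ± 0.10, with an interval of -9.29 to 23.3% change (edgeR adjusted p = 0.651). Its start overlaps that of KARS1, a lysyl-tRNA synthetase gene on the other strand. The sources do not say if reads were counted by strand, so where a member overlaps another gene, reads could belong to either. KARS1 stood at 156 ± 12.7 CPM with Mi-2 and 183 ± 5.27 CPM with DMSO (log2 fold change -0.23 ± 0.09, edgeR adjusted p = 0.117).

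TINF2 (ENSG00000092330, chromosome 14, 24239643 to 24242674, minus strand), the bridging subunit, had 56.9, 50.4 and 54.4 CPM in Mi-2 libraries 1, 2 and 3, against 44.4, 47.7 and 45.2 CPM in DMSO libraries 1, 2 and 3. Every Mi-2 library lay above every DMSO library. The log2 fold change of 0.23 ± 0.08, an interval of 3.32 to 34.0% change, missed the threshold (edgeR adjusted p = 0.104). Its adjusted p stayed between 0.0600 and 0.313 under every alternative.

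For the subunits of the single-stranded end, ACD (ENSG00000102977, chromosome 16, 67657512 to 67660815, minus strand) had 28.1, 27.0 and 34.9 CPM in Mi-2 libraries 1, 2 and 3, against 34.2, 36.2 and 40.3 CPM in DMSO libraries 1, 2 and 3. Mi-2 library 3 reached into the DMSO range. The log2 fold change of ACD was -0.30 ± 0.12, an interval of -32.4 to -1.89% change (edgeR adjusted p = 0.145). Without Mi-2 library 3 it was -0.42 and passed (edgeR adjusted p = 0.0475, with 9.66% of all genes called), while over all alternatives the adjusted p ran from 0.0265 to 0.398. POT1 (ENSG00000128513, chromosome 7, 124822386 to 124929983, minus strand) had 16.8, 16.8 and 16.5 CPM in Mi-2 libraries 1, 2 and 3, against 17.2, 15.7 and 16.3 CPM in DMSO libraries 1, 2 and 3. These values overlapped closely, with a log2 fold change of 0.03 ± 0.11 and a 95% interval of -0.21 to 0.26 (edgeR adjusted p = 0.903).

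**Figure D3:**
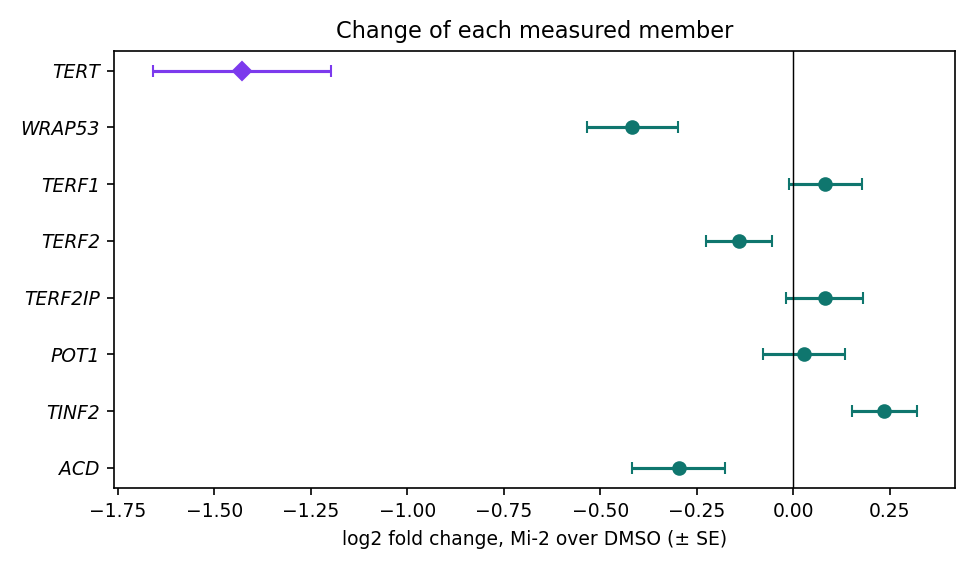
Log2 fold change of Mi-2 over DMSO for the 8 detected members, with bars for ± SE. TERT, plotted as a diamond, was chosen for its fall (-1.43), and the other 7 lie between -0.42 (WRAP53) and 0.23 (TINF2).

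POT1-AS1 overlaps the start of POT1 on the other strand. It had 2.04 ± 0.156 CPM with Mi-2 and 1.20 ± 0.0772 CPM with DMSO (log2 fold change 0.77 ± 0.26, edgeR adjusted p = 0.0909). If strand was ignored in counting, some reads of either gene may have gone to the other. CARMIL2, whose end overlaps that of ACD, had a log2 fold change of -0.40 ± 0.17, and PARD6A, which starts beside ACD on the other strand, -0.13 ± 0.15. None of these 4 genes that overlap or adjoin a member (KARS1, POT1-AS1, CARMIL2 and PARD6A) passed in edgeR, DESeq2 or limma-voom, which called 11.0%, 17.1% and 11.0% of all genes. At an unadjusted p under 0.05 there were 3 of the 4, against 27.0% of all tested genes.

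Within a library, ratios between members do not depend on how libraries are scaled. Of 4 ratios, chosen after the values were seen, that of TINF2 over ACD in TPM was 1.36, 1.35 and 1.10 in Mi-2 libraries 1, 2 and 3, against 0.917, 0.911 and 0.785 in DMSO libraries 1, 2 and 3. TINF2 exceeded ACD in each Mi-2 library and was below it in each DMSO library. The other 3 ratios overlapped between the groups. ACD over POT1 was 3.31 to 5.11 with Mi-2 and 4.13 to 5.31 with DMSO. TERF1 over TERF2 was 0.965 to 1.49 with Mi-2 and 0.917 to 1.23 with DMSO. TERF2IP over TERF2 reached 4.85 in Mi-2 library 1, while the other 5 libraries lay between 2.99 and 3.16. The number of counts that make 1 TPM of TERF2 was also highest in Mi-2 library 1. Relative to its mean, after scaling to the typical gene, it was 1.20 there, against 0.871 to 1.12 in the others. The ratios over TERF2 in TPM carry that difference.

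The genes around TERT on 5p15.33 were compared to see whether its neighbours changed too. Of 33 annotated genes within 500 kb of TERT, 11 had enough reads to test, and edgeR called 0, against 11.0% of all tested genes. At an unadjusted p under 0.05 there were 5, against 27.0% of all tested genes. DESeq2 called 2 of the 8 it gave an adjusted p (17.1% of all genes) and limma-voom 0 of the 11 (11.0%). The median log2 fold change of the 11 was -0.29, beside 0.0050 over all tested genes, and 9 of the 11 values were negative. CLPTM1L, whose start lies 50 kb from that of TERT and whose protein crosses the endoplasmic reticulum membrane, had 767, 700 and 651 CPM in Mi-2 libraries 1, 2 and 3, against 814, 691 and 669 CPM in DMSO libraries 1, 2 and 3. These overlapped (log2 fold change -0.04 ± 0.11, edgeR adjusted p = 0.860). On its other side, SLC6A18 and SLC6A19, amino acid transporter genes, were listed at 0 in every library, as was TERLR1, a non-coding gene of the TERT locus. The ion transporter gene SLC12A7 (-0.05 ± 0.16) and the phospholipid enzyme gene LPCAT1 (0.04 ± 0.09) had log2 fold changes within their errors of 0.

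TRIP13, which encodes an ATPase of the mitotic checkpoint and starts 402 kb from TERT, had the most negative value among the neighbours whose log2 CPM averaged at least 1. It had 52.0, 55.3 and 89.7 CPM in Mi-2 libraries 1, 2 and 3, against 92.3, 94.5 and 111 CPM in DMSO libraries 1, 2 and 3. Its Mi-2 library 3 was high, as that of TERT was. The log2 fold change of TRIP13 was -0.59 ± 0.19 (edgeR adjusted p = 0.0706), and without Mi-2 library 3 it was -0.89 (adjusted p = 0.00288). Over all alternatives its adjusted p ran from 9.71e-07 to 0.225. BRD9, a chromatin remodelling subunit gene that starts beside TRIP13, had -0.29 ± 0.09 (edgeR adjusted p = 0.0571), ZDHHC11 -0.44 ± 0.19, ZDHHC11B -0.25 ± 0.20 and LINC02982 -0.58 ± 0.27. In TPM, ZDHHC11 averaged 10.4 with Mi-2 and 10.6 with DMSO. Over all alternatives its log2 fold change ran from -0.62 to -0.03. Of the tested neighbours whose log2 CPM averaged under 1, NKD2 (-1.09 ± 0.36) and LINC03067 (-0.93 ± 0.38) were more negative than TRIP13. PDCD6P1, also under 1, had 0.07 ± 0.80.

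**Figure D4:**
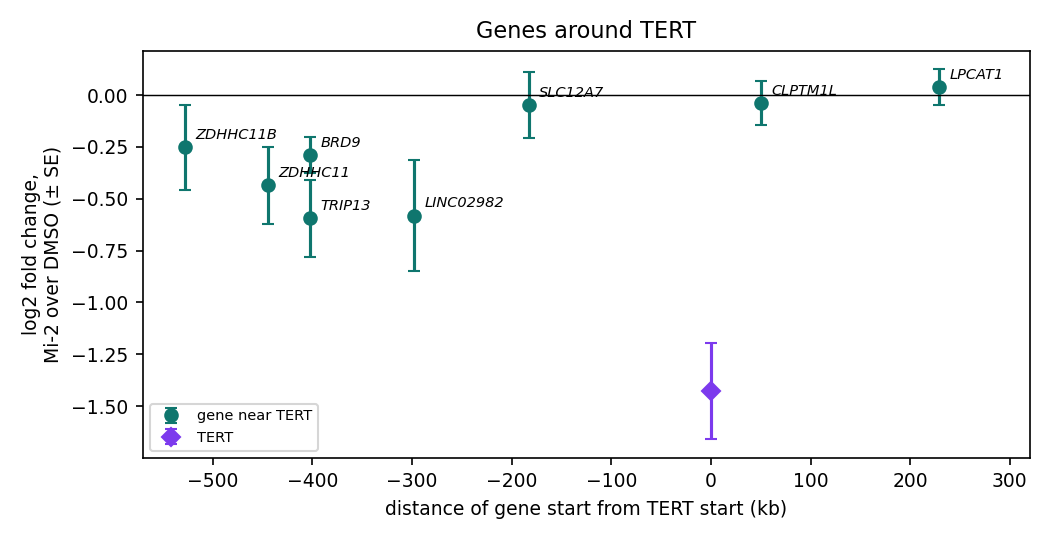
Log2 fold change of Mi-2 over DMSO (± SE) against the distance of each gene's start from that of TERT in kb, for the neighbours whose log2 CPM averaged at least 1. TERT, a diamond at 0, lies at -1.43, and the nearest tested neighbour, CLPTM1L, at -0.04. Not drawn, as their log2 CPM averaged less, are NKD2 (-1.09), LINC03067 (-0.93) and PDCD6P1 (0.07).

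Genes that act with telomerase or shelterin were read by list, beside all tested genes, of which 6.03% fell and 5.02% rose with a median log2 fold change of 0.0050. Of 16 genes of telomerase assembly and TERT chaperoning, 4 fell and 1 rose in edgeR, and the median was -0.34. HSP90AA1, a chaperone that TERT needs to fold, fell to 995 ± 178 CPM with Mi-2, against 1757 ± 124 CPM with DMSO (-0.82 ± 0.13, edgeR adjusted p = 0.00666). RUVBL1 (-0.52 ± 0.10) and RUVBL2 (-0.43 ± 0.12), ATPases of telomerase assembly, also fell, and so did DKC1, the dyskerin gene, whose protein holds TERC, named after its values were seen (-0.36 ± 0.10). TEP1, a telomerase-associated protein gene, rose (0.46 ± 0.09). Dyskerin's partners NHP2 (-0.30 ± 0.10), GAR1 (-0.35 ± 0.12) and NOP10 (0.15 ± 0.09) did not pass. HSP90AA1 was called with any library left out. It was the 1 call that remained when Mi-2 library 1, DMSO library 2 or DMSO library 3 was dropped. In that order, those fits called 216, 246 and 275 of all tested genes higher and 302, 390 and 418 lower. With all libraries these were 808 and 969. RUVBL2, TEP1 and DKC1 were not called on the TPM scale. RUVBL2 also lost its call with upper-quartile scaling and without Mi-2 library 2, while DKC1 lost it without any library but that one.

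The TRiC chaperonin folds the WRAP53 protein, among others. Of its 8 subunit genes 6 fell and none rose, with a median of -0.40. TCP1 fell to 130 ± 12.7 CPM with Mi-2, against 192 ± 6.87 CPM with DMSO (-0.56 ± 0.09, edgeR adjusted p = 0.00751). CCT6A (-0.52 ± 0.09) and CCT7 (-0.40 ± 0.09) fell too, and all 8 values were negative. With Mi-2 library 1, DMSO library 2 or DMSO library 3 left out, 2 of them were called, and with Mi-2 library 3 or DMSO library 1 left out, 3. TCP1 and CCT6A were called each time. In the order given, those fits called 302, 390, 418, 866 and 736 of all tested genes lower, against 969 with all libraries. Of 8 genes that process TERC RNA, 1 fell: TOE1, a deadenylase gene (-0.40 ± 0.10), which lost its call without any library but Mi-2 library 3, and on the TPM scale. PARN, the deadenylase that matures TERC, had 0.06 ± 0.08.

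The CST complex (CTC1, STN1 and TEN1) ends telomerase action and brings DNA polymerase alpha-primase to fill in the other strand. Its 3 genes had log2 fold changes of 0.23 ± 0.08, 0.17 ± 0.11 and 0.00 ± 0.16 in that order, and none passed. The polymerase genes POLA1 (-0.72 ± 0.08) and POLA2 (-0.64 ± 0.12) and the primase gene PRIM1 (-0.82 ± 0.12) fell, which makes 3 of the 7 genes of this list. PRIM1 stood at 31.1 ± 2.37 CPM with Mi-2 and 55.1 ± 7.76 CPM with DMSO. POLA2 was not called without Mi-2 library 1 or DMSO library 3 (its edgeR adjusted p reached 0.0614), nor on the TPM scale. POLA1, POLA2 and PRIM1 take part in replication across the genome and are not particular to telomeres.

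Of 17 accessory factors at telomeres, 7 fell and none rose, with a median of -0.21. BLM, a helicase gene (-0.86 ± 0.12), RIF1, a regulator of replication timing and of DNA ends (-0.67 ± 0.10), and PRKDC, the catalytic subunit of DNA-dependent protein kinase (-0.67 ± 0.10), were the largest, and all 3 were called with any library left out. RIF1 was not called on the TPM scale. Named after their values were seen, DCLRE1B (Apollo), a nuclease that TERF2 recruits, fell (-0.60 ± 0.16), and so did the helicase gene RTEL1 (-0.38 ± 0.10), though with a library left out both were called only without Mi-2 library 3. Both also lost their calls on the TPM scale and with upper-quartile scaling. TNKS, a tankyrase gene whose protein releases TERF1 from telomeres, had 0.28 ± 0.09 and did not pass. The count of accessory factors called was 3 without Mi-2 library 1, where 216 of all 16481 tested genes were called higher and 302 lower. It was 4 without DMSO library 3, where 275 of all 16535 tested genes were called higher and 418 lower. Of 8 telomere chromatin genes, such as ATRX (0.00 ± 0.10), edgeR called 0 and limma-voom 0, against 11.0% of all genes for each. DESeq2 called 1 of the 8 (17.1% of all genes), and 3 had an unadjusted p under 0.05 (27.0% of all genes).

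Of 18 transcription factor genes linked to the TERT promoter, 2 fell and 1 rose, with a median of -0.12. E2F1 fell to 44.5 ± 7.42 CPM with Mi-2, against 89.3 ± 9.38 CPM with DMSO (-1.01 ± 0.13, edgeR adjusted p = 0.00314). MYC, which activates TERT through the E-box, had 332, 338 and 399 CPM in Mi-2 libraries 1, 2 and 3, against 461, 506 and 499.6 CPM in DMSO libraries 1, 2 and 3 (edgeR adjusted p = 0.0196). The groups did not overlap, and Mi-2 library 3 was the highest of its group, as for TERT. That was not particular to MYC: E2F1 had 40.2, 40.1 and 53.0 CPM in Mi-2 libraries 1, 2 and 3. Whether any of these factors bears on the level of TERT was not tested. MXD4, a member of the family that competes with MYC for MAX at E-boxes, rose to 76.9 ± 14.9 CPM with Mi-2, against 44.7 ± 6.43 CPM with DMSO (0.79 ± 0.15, edgeR adjusted p = 0.0115). MAX (0.07 ± 0.11), SP1 (0.06 ± 0.08), GABPA (-0.07 ± 0.09), NFKB1 (-0.14 ± 0.18) and RELA (0.07 ± 0.08) did not pass. MYC lost its call when Mi-2 library 1, Mi-2 library 2, DMSO library 2 or DMSO library 3 was dropped (edgeR adjusted p up to 0.0809). MXD4 lost it without either of those DMSO libraries (up to 0.0548), which left E2F1 alone, and on the TPM scale. Without DMSO library 2 or 3, edgeR called 246 or 275 of all tested genes higher and 390 or 418 lower.

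**Figure D5:**
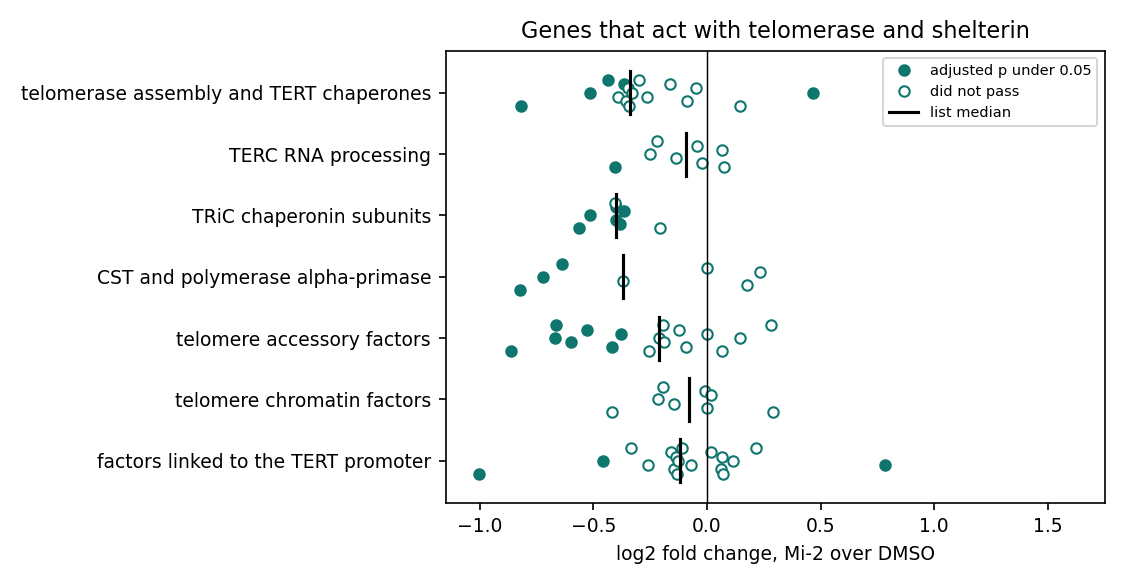
Log2 fold change of Mi-2 over DMSO for each tested gene of the 7 lists of genes that act with telomerase and shelterin. Filled points passed an adjusted p under 0.05 in edgeR, open points did not, and vertical lines mark list medians, which lie between -0.40 (TRiC) and -0.08 (telomere chromatin).

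Over the 6 libraries, the 5 genes whose log2 CPM was most like that of TERT, among 12685 genes compared, were WDR90 (Pearson r = 0.998), PLEKHH3 (0.997), POLE (0.997), ABCA2 (0.996) and NCAPH2 (0.995). WDR90 encodes a centriole protein, POLE the catalytic subunit of a replicative DNA polymerase, ABCA2 a lipid transporter and NCAPH2 a condensin subunit. None of the 5 lies on chromosome 5. POLE had 73.6, 67.6 and 92.5 CPM in Mi-2 libraries 1, 2 and 3, against 136, 144 and 144 CPM in DMSO libraries 1, 2 and 3. As in TERT, the DMSO libraries lay close together and Mi-2 library 3 was the highest of its group. These genes were chosen for that likeness, r is set mostly by the step between the groups, and 725 genes reached an r of 0.9, so it is given as a description.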

How the data were processed

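Estimated counts and TPM values per gene were deposited by the authors for 6 paired-end RNA-seq libraries of H929 cells. The submitters' processing notes name RSEM 1.3.3, StringTie 2.1.0, HISAT2 2.1.0 and fastp 0.19.5, with the build GRCh38.p13 and no roles. The sources used here give neither library strand nor RNA selection. The estimated counts, per the file headers one column per library, are partly fractional and unscaled, and the deposited TPM are corrected for length. Reads of near-identical genes are shared out by such estimates.

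Counts were rounded, filtered with filterByExpr of edgeR 4.0.16 (minimum count 10, total 15), scaled by TMM and tested with the quasi-likelihood F test in R 4.3.3. P-values were adjusted by Benjamini-Hochberg over 16082 genes, and rows of the members were read from that fit. Standard errors are the size of the log2 fold change over the root of F, and 95% intervals from the test's degrees of freedom. The biological coefficient of variation was 14.2%, which limits what can be detected at any level, and in weakly expressed genes counting noise adds to it. The fit was tested on simulated data. Pairs of libraries within a group gave a chi-square of 16.6 to 23.4 per degree of freedom, far above counting noise, and none was a copy. Coordinates are those of GENCODE 29 on GRCh38, and promoters and their windows are from RefSeq (GRCh38.p14).

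The members, gene lists and rules for naming genes were chosen with earlier results of these data known. Named genes were the members, up to 3 called genes per list and direction, tested genes near TERT whose log2 CPM averaged at least 1, tested genes overlapping a member (1 of which is not reported here), the 5 genes most like TERT, and MYC. Others are values of list members given for context, or are stated to be chosen later. PINX1 has 2 IDs, of which the one with more counts was used. Other settings tried were upper-quartile and RLE scaling, limma-voom (limma 3.58.1), DESeq2 1.42.0, no filter, a filter of 1 CPM in 3 libraries, limma on log2(TPM + 1) or log2(TPM + 0.1) with a mean TPM of at least 1 or unfiltered, a block for the library number, and leaving out each library. On TPM, fold changes are those of log2(TPM + pseudocount).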

Additional observations from a re-analysis of the deposited data

How the results depend on the processing

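TERT kept its direction in every alternative, from -1.74 (without Mi-2 library 3) to -1.11 (log2(TPM + 1)). Direction was lost by POT1 (-0.0064, -0.0075 and -0.0064 with TPM plus 1, plus 0.1 and plus 1 unfiltered, and -0.0022 without DMSO library 2), CLPTM1L (0.017 without Mi-2 library 3, 0.054 without DMSO library 1), LPCAT1 (-0.014 without DMSO library 1) and SLC12A7 (0.11 without Mi-2 library 2, 0.039 without DMSO library 1), none of which passed in any of them, and the cause was not tested. With a library left out they ran from -0.0022 to 0.060 (POT1), -0.10 to 0.054 (CLPTM1L), -0.014 to 0.088 (LPCAT1) and -0.22 to 0.11 (SLC12A7). Genes called higher and lower numbered 808 and 969. Without a filter on low counts they were 1221 and 1541, with limma on log2(TPM + 1) 229 and 381, with log2(TPM + 0.1) 249 and 398, and with log2(TPM + 1) unfiltered 0 and 0, where each list also had 0. With a library left out they ran from 216 to 715 and from 302 to 866. DESeq2 called 1 member other than TERT, 8 assembly genes, 1 chromatin gene and 2 genes near TERT. The unfiltered edgeR fit called 1, 10, 1 and 1 of these, and the 1 CPM filter called 1 member. Limma on log2(TPM + 1) and log2(TPM + 0.1) each called 2 assembly, 0 TERC processing and 4 accessory genes. With a library left out, 0 to 1 members, 1 to 4 assembly, 0 to 1 TERC processing, 2 to 7 TRiC, 3 to 7 accessory and 1 to 3 promoter-linked genes were called, and 0 to 1 near TERT.

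The labels name no pairs, and the library numbers were not shown to pair the libraries. Deviations from group means correlated at 0.409, 0.059 and 0.261 for numbers 1, 2 and 3, and between -0.326 and 0.079 for unlike numbers. Like numbers gave the highest value for Mi-2 libraries 1 and 3 and for each DMSO library. Mi-2 library 2 correlated slightly more with DMSO library 3 (0.079). Pairing was left out of the main fit. With the replicate block edgeR called 1791 genes higher and 2035 lower of 16082 tested, so more genes of any list would be called. It called 2 of 7 members other than TERT (WRAP53 and ACD, both lower) and 12 of 16 assembly genes. It also called 2 of 8 TERC processing genes, 2 of 8 chromatin genes, 3 of 11 near TERT and 1 of 5 overlapping a member.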
